A study of Homo sapiens with 4 samples.

Results

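The imprinted DLK1-DIO3 cluster at 14q32 was followed in the established human multiple myeloma line RPMI8226 and in the exosome fraction of its medium. Members were taken by name, with no measured value in the rule: every human assay on the array card for 1 of 35 listed miRNA names of the cluster, with or without an arm suffix and without passenger strands. The rule found 39 of the card's 377 human miRNA assays, for 34 of the listed names. The remaining name, miR-543, had no matching human assay on the card. The 39 assays fall on 36 RefSeq genes of chromosome 14, and both arms were assayed for 5 hairpins (miR-127, miR-299, miR-369, miR-485 and miR-654). Most of the cluster was at the detection limit: 25 members were not detected in any sample, 4 were detected in cells and 12 in the exosome fraction. Of all 377 assays, 33.4% were not detected in any sample, 45.1% were detected in cells and 62.9% in the exosome fraction.

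The study compared 24 h at 20% oxygen (normoxia) with 24 h at 1% oxygen (hypoxia), in cells and in exosomes, the small vesicles that cells release. Each of the 4 groups was 1 sample: normoxic cells, hypoxic cells, normoxic exosome fraction and hypoxic exosome fraction. All came from this single line, with no gene altered, and the labels do not say whether cells and medium came from the same culture. The exosome fraction was precipitated with a polymer reagent, which collects vesicles together with other material of the medium. Only its reverse-transcription products were amplified once more before the card. With 1 sample a group, no difference below has a replicate check and no test was made.

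The DLK1-DIO3 region carries genes that are read from only the paternal or only the maternal chromosome. DLK1, RTL1 and DIO3 are paternally expressed protein genes, while the long noncoding RNAs MEG3, MEG8 and MEG9 and the miRNAs are maternally expressed. The miRNAs form a group near MEG3 and RTL1 and a longer group downstream of MEG8, and they are best known from brain, placenta and embryonic tissue. In blood cancers the cluster is known for high levels in acute promyelocytic leukaemia, and methylation of the MEG3 promoter has been described in multiple myeloma.

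The mature sequences of the members that carry the results are printed first, 5′ to 3′, from RefSeq (GRCh38.p14, all on the plus strand of chromosome 14), with the seed, bases 2 to 8, in capitals. The seed is the stretch that does most of the pairing with a target mRNA. All 39 assays matched an entry. An arm is given in 13 assay names and not in the other 26, so both arms are printed where the name gives none, and no value is assigned to either arm. The first set holds the 4 members that were detected in cells.
miR-493-5p (chr14:100869075-100869096): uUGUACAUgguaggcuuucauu
miR-493-3p (chr14:100869116-100869137): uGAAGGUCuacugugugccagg
miR-494-5p (chr14:101029648-101029670): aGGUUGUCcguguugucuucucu
miR-494-3p (chr14:101029681-101029702): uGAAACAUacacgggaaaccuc
miR-487a-5p (chr14:101052458-101052479): gUGGUUAUcccugcuguguucg
miR-487a-3p (chr14:101052494-101052515): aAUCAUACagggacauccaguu
miR-323a-3p, the RefSeq name of the assay miR-323-3p (chr14:101025782-101025802): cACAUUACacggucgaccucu

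The second set holds members detected only in the exosome fraction: the pair whose names give the arm, and the pair whose bounds under hypoxia were the largest.
miR-127-3p (chr14:100883035-100883056): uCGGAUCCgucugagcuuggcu
miR-654-3p (chr14:101040269-101040290): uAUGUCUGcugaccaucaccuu
miR-539-5p (chr14:101047329-101047350): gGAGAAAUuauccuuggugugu
miR-539-3p (chr14:101047369-101047390): aUCAUACAaggacaauuucuuu
miR-655-5p (chr14:101049572-101049593): aGAGGUUAuccguguuauguuc
miR-655-3p (chr14:101049610-101049631): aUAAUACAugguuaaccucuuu

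The third set is the miR-376 family, near-identical copies that PCR assays can confuse, of which miR-376a and miR-376c were detected and miR-376b was not.
miR-376a-5p (chr14:101040788-101040809): gUAGAUUCuccuucuaugagua
miR-376a-2-5p (chr14:101040080-101040100): gGUAGAUUuuccuucuauggu
miR-376a-3p (chr14:101040825-101040845, with a second copy at chr14:101040118-101040138): aUCAUAGAggaaaauccacgu
miR-376b-5p (chr14:101040459-101040480): cGUGGAUAuuccuucuauguuu
miR-376b-3p (chr14:101040497-101040518): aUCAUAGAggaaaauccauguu
miR-376c-5p (chr14:101039694-101039714): gGUGGAUAuuccuucuauguu
miR-376c-3p (chr14:101039732-101039752): aACAUAGAggaaauuccacgu

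Counting from 1 at the 5′ end and naming the miR-376a-3p base first, miR-376b-3p differs from it by C19U over their shared length, and miR-376c-3p by U2A and A14U. The first of the miR-376c-3p differences lies in the seed. The member genes give 69 mature arms with 62 different seeds, and 7 seeds are each held by a pair of arms. In each of the 7 pairs an assay of 1 gene was detected in at least 1 sample and those of the other gene in none, as for AUCAUAC (miR-487a-3p and miR-154-3p), UCAUACA (miR-539-3p and miR-485-3p) and UCAUAGA (miR-376a-3p and miR-376b-3p). Each of these 3 seeds is carried by 0.0844% of the 2370 mature miRNA names in the RefSeq table. A shared seed is a description of sequence and no measurement of a target. Of the 39 member assays, 14 (35.9%) were detected in at least 1 sample, against 251 of 377 (66.6%) over the card. Where an assay name gives no arm, its detection is not tied to the seed of either arm. The split within the pairs is therefore a description only.

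Values are threshold cycles (Ct), the PCR cycle at which a well's fluorescence crosses a threshold, so a lower Ct is more template, and 1 cycle stands for a 2-fold difference at full efficiency. The highest Ct in the table, 35, was read as not detected and is called the ceiling. The normalizer for cells, the small nuclear RNA U6, had a Ct of 18.82 ± 0.15 (SD, n = 4 wells) in normoxic and 18.81 ± 0.12 (SD, n = 4 wells) in hypoxic cells. The spike-in of the exosome fraction, the plant miRNA ath-miR159, had a Ct of 22.94 in normoxia and 22.99 in hypoxia. All 6 lymphoid and blood assays chosen as markers were detected in every sample, at Ct 24.95 to 31.94 in cells and 18.75 to 27.98 in the exosome fraction. Markers of other tissues were mixed. In each sample 4 of 5 epithelial assays, the endothelial miR-126 and at least 3 of 4 nervous system assays were detected. Among the epithelial assays, miR-200c was detected in cells only and miR-141 in exosome samples only. Of 4 fibroblast and mesenchymal assays, 2 were detected in hypoxic exosomes and 1 in every other sample. Of 2 muscle assays, 0 were detected in normoxic cells, 1 in hypoxic cells and 2 in each exosome sample. Of 3 red cell assays, only miR-451 was detected, in normoxic exosomes alone. The liver miRNA miR-122 was at the ceiling in all 4 samples. miR-210, the standard miRNA marker of hypoxia, was higher in hypoxia by 3.55 in cells and by 0.39 in the exosome fraction on the log2 scale.

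In each of the 4 samples a smaller share of the cluster than of the whole card was detected. In normoxic cells 4 of 39 members (10.3%) were detected, against 162 of all 377 human miRNA assays (43.0%). In hypoxic cells 3 members (7.69%) and 155 assays (41.1%) were detected. The exosome fraction had 8 members (20.5%) and 221 assays (58.6%) in normoxia, and 9 members (23.1%) and 219 assays (58.1%) in hypoxia. C19MC, the imprinted placental cluster on chromosome 19, was also sparse, with 3 and 1 of 35 assays in normoxic and hypoxic cells, and 12 and 10 in the normoxic and hypoxic exosome fraction. Among the 298 assays outside both imprinted regions, between 50.7% and 67.4% were detected in each sample. These shares are descriptions of 4 samples. The 3 placental marker assays, all from C19MC, were at the ceiling in both cell samples and detected in both exosome samples, at Ct 28.46 to 29.98. Relative to each sample's median assay, as defined further on, these exosome values lay below what the cell samples could detect. They therefore leave undetermined whether the levels differed between the compartments.

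**Figure D1:**
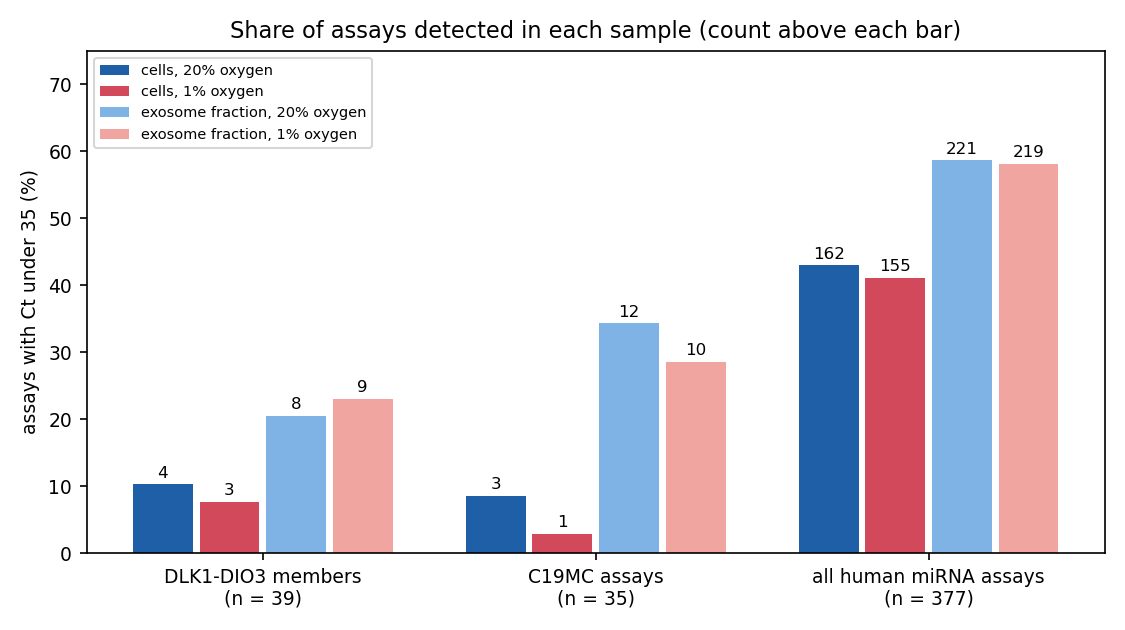
Percent of assays detected (Ct under 35) in each of the 4 samples, for the 39 cluster members, the 35 C19MC assays and all 377 human miRNA assays, as bars from 0 with the count above each. Between 7.69% and 23.1% of members and between 41.1% and 58.6% of all assays were detected.

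The 25 members at the ceiling in all 4 samples were, in gene order, miR-337-5p, miR-431, miR-433, miR-127-5p, miR-136, miR-370, miR-379, miR-299-3p, miR-299-5p, miR-380, miR-758, miR-329, miR-654-5p, miR-376b, miR-487b, miR-382, miR-134, miR-485-3p, miR-485-5p, miR-154, miR-377, miR-409-5p, miR-369-3p, miR-369-5p and miR-410. They include miR-134, known for restraining dendritic spine growth in neurons, and miR-431, miR-433 and miR-136, which are antisense to RTL1. A further 5 assays of genes in the same stretch of chromosome 14 lie outside the rule (miR-412, miR-453, miR-496, miR-541 and miR-544), and all of them were at the ceiling in all 4 samples. The ceiling shows that a member was not detectable under these conditions, not that it was absent.

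**Figure D2:**
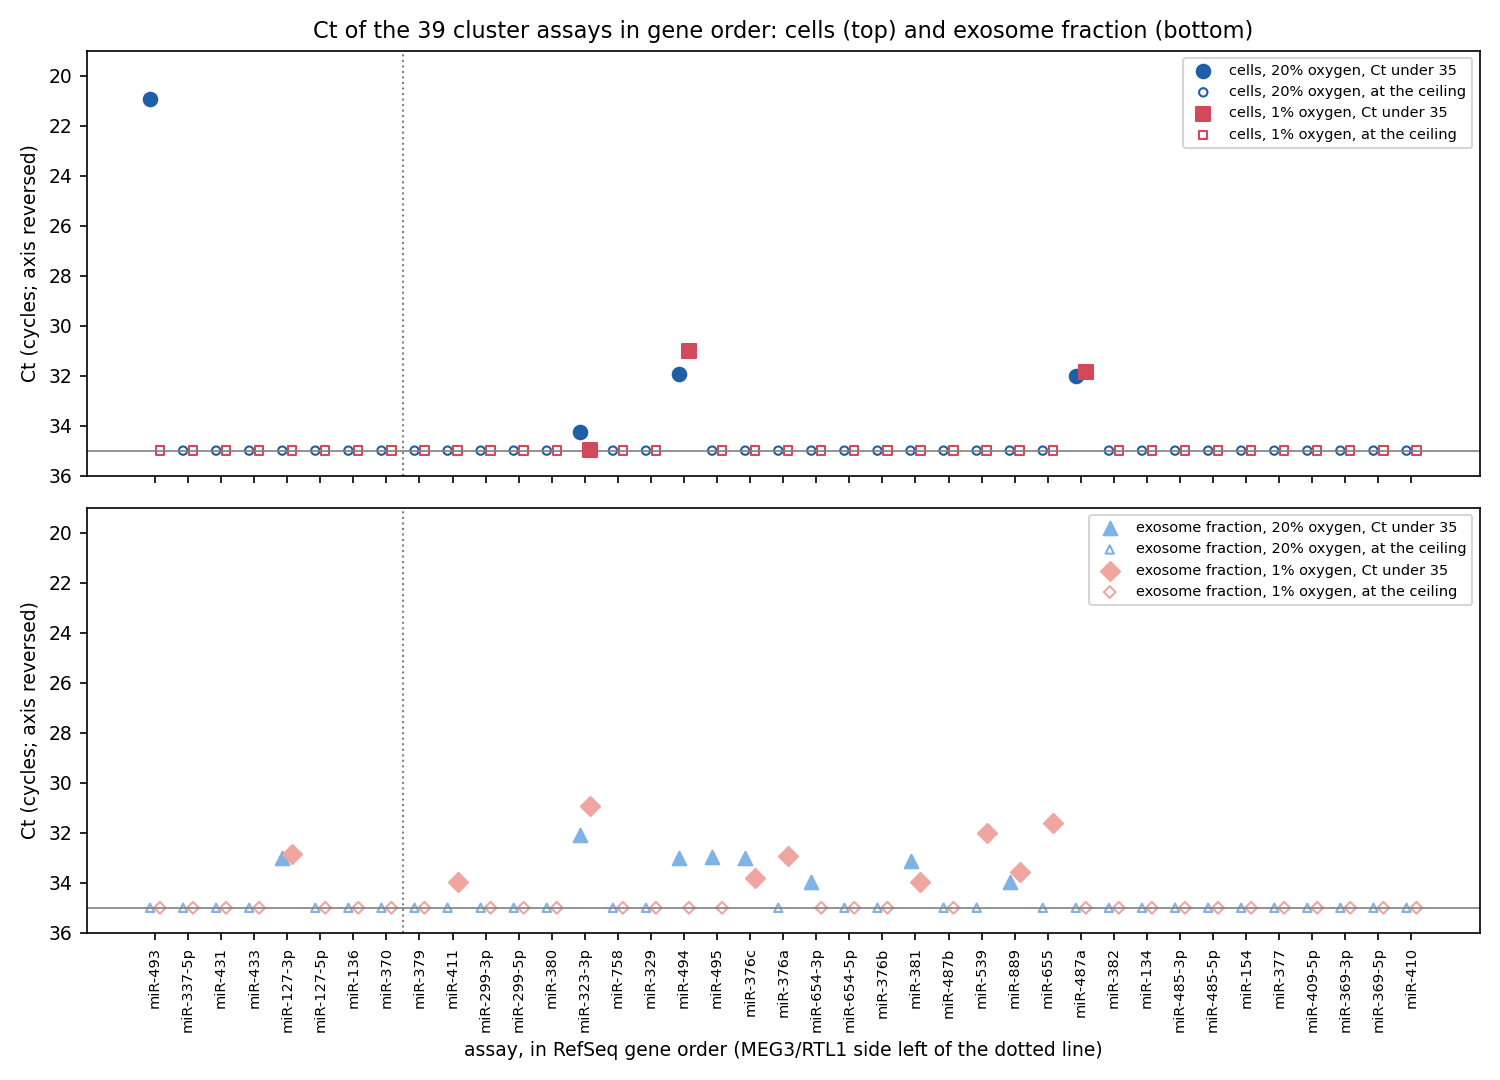
Ct in cycles, on a reversed axis, of the 39 cluster assays in RefSeq gene order, in cells (top) and the exosome fraction (bottom) at 20% and 1% oxygen. Filled symbols are values under Ct 35, small open ones lie at the ceiling, and the dotted line parts the MEG3 and RTL1 side from the rest. miR-493 in normoxic cells, at Ct 20.9, stands apart, while all other member values lie between 30.9 and 35.

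In cells, 3 of the 4 detected members were late, above Ct 31 in both samples. miR-494 had a Ct of 31.918 in normoxic and 31.001 in hypoxic cells. miR-487a had a Ct of 32.02 in normoxic and 31.85 in hypoxic cells. miR-323-3p had a Ct of 34.27 in normoxic and 34.99 in hypoxic cells, within 1 cycle of the ceiling in both. In hypoxic cells the lowest member Ct was that of miR-494, and 80 of the 377 assays had a lower one.

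miR-493 was the exception. Its Ct was 20.94 in normoxic cells, and it was at the ceiling in hypoxic cells and in both exosome samples. No assay of the 377 had a lower Ct in normoxic cells. Taken as measured, the hypoxic cells had at least 17199-fold less miR-493 after U6 normalization, the largest bound among the 15 assays (3.98% of 377) detected in normoxic cells only. In hypoxic cells only, 0 members were detected, against 8 of 377 assays (2.12%). Of the 13 assays under Ct 25 in normoxic cells, miR-493 was the only 1 at the ceiling in hypoxic cells. Of the 12 assays under Ct 25 in hypoxic cells, 0 were at the ceiling in normoxic cells. In the exosome fraction such a jump was seen for 0 of 89 assays under Ct 25 in normoxia and 1 of 88 in hypoxia. The latter was miR-520e, at Ct 18.98 in hypoxia and at the ceiling in normoxia. Its log2 bound was 16.07, beside -14.07 for miR-493 in cells, so miR-493 was not the only early assay with such a jump. The miR-493 value rests on 1 well in each sample, and no second well or sample checks it.

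The other 3 members detected in cells had values in both samples, and 0 of them were 2-fold higher or lower in hypoxia. Over all 147 assays detected in both cell samples, 13.6% were past 2-fold, 7.48% higher and 6.12% lower. miR-494 was 1.88-fold higher in hypoxia after U6 normalization, a log2 change of 0.91, and 13 of the 147 assays had a higher one. miR-487a was 1.12-fold higher, a log2 change of 0.16. miR-323-3p was 1.66-fold lower, a log2 change of -0.73, and 11 of the 147 assays had a lower one. The median of the 3 members was 0.16, beside 0.03 over all 147 assays. The log2 changes had an SD of 0.66 over the 62 assays with a mean Ct from 28 to 32 and of 0.85 over the 50 assays from 32 to 35. The change of miR-494 was thus larger than the SD at its level, and those of miR-487a and miR-323-3p were smaller. All 3 lay inside the range that held the middle 95% of assays, -1.19 to 1.31.

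Of the members detected in cells, miR-323-3p and miR-494 were detected in the exosome fraction too. Of the 12 detected in that fraction, 5 had values in both of its samples. miR-127-3p, which pairs fully with the RTL1 transcript from the opposite strand, had a Ct of 32.999 in normoxia and 32.850 in hypoxia. miR-323-3p had a Ct of 32.07 in normoxia and 30.92 in hypoxia. The latter values were the lowest of any member in each exosome sample, and 187 assays in normoxia and 170 in hypoxia had a lower Ct.

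miR-376c, of the family shown above, had a Ct of 32.99 in normoxia and 33.81 in hypoxia. miR-381 had a Ct of 33.14 in normoxia and 33.95 in hypoxia. miR-889 had a Ct of 33.96 in normoxia and 33.57 in hypoxia. All 5 lay between Ct 30.9 and 33.96 in both exosome samples, close to the ceiling.

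After normalization to the spike-in, 1 of the 5 was 2-fold higher in hypoxia and 0 were 2-fold lower, where 3.94% of all 203 assays measured in both exosome samples were higher and 3.45% lower, 7.39% in all. The one past 2-fold was miR-323-3p, 2.30-fold higher with a log2 change of 1.20, and 6 of the 203 assays had a higher one. miR-127-3p was 1.15-fold higher (log2 change 0.20) and miR-889 1.36-fold higher (0.45). miR-376c and miR-381 were each 1.69-fold lower, both with a log2 change of -0.76. The median of the 5 was 0.20, beside -0.07 over all 203 assays. The SD of log2 changes was 0.67 over the 51 assays with a mean Ct from 28 to 32, the stretch that holds miR-323-3p, and 1.28 over the 23 assays from 32 to 35, which hold the other 4 members. The change of miR-323-3p was larger than the SD of its stretch and inside the middle 95% of all assays, -1.36 to 1.36. The changes of the other 4 were smaller than the SD of theirs.

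**Figure D3:**
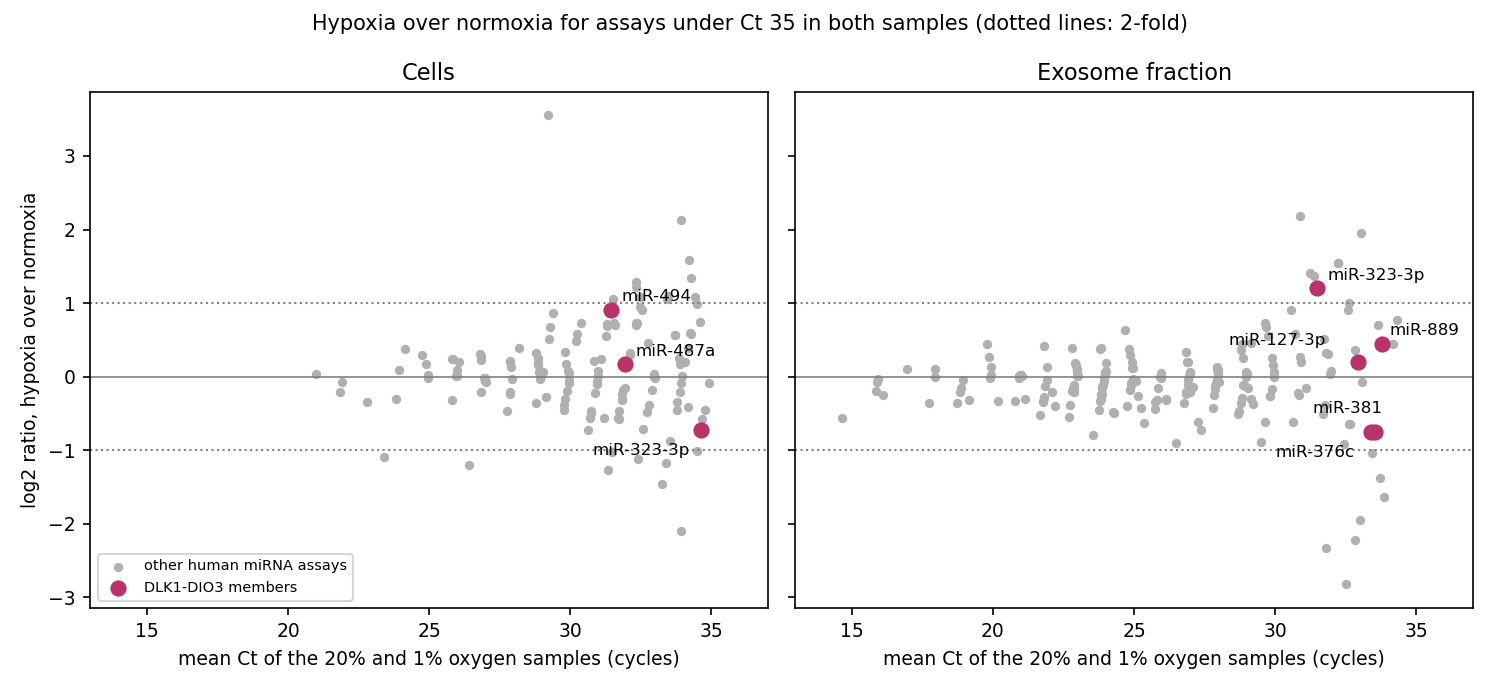
Log2 change, hypoxia over normoxia, against the mean Ct of both samples, for the 147 assays measured in both cell samples (left) and the 203 measured in both exosome samples (right), with members in colour and dotted lines at 2-fold. The scatter widens with Ct, from an SD of 0.35 under Ct 28 to 0.85 from Ct 32 in cells and from 0.26 to 1.28 in the exosome fraction, and all members lie in the later, wider stretches.

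The other 7 members of the exosome fraction were detected at 1 oxygen level and were at the ceiling at the other. Normoxia held 3 of them (18 of 377 assays, 4.77%, were seen in normoxia only) and hypoxia 4 (16 of 377, 4.24%). In normoxia only, miR-494 had a Ct of 33.03, miR-495 of 32.99 and miR-654-3p of 33.96. In hypoxia only, miR-655 had a Ct of 31.62, miR-539 of 32.002, miR-376a of 32.94 and miR-411 of 33.97. No member of either set was under Ct 31.

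Against the ceiling, each such difference is a lower bound. In hypoxia miR-655 was at least 10.8-fold higher, miR-539 at least 8.29-fold, miR-376a at least 4.34-fold and miR-411 at least 2.11-fold. In hypoxia miR-495 was at least 3.89-fold lower, miR-494 at least 3.79-fold and miR-654-3p at least 1.99-fold. Thus 3 members were detected in normoxia only and 4 in hypoxia only, and no common direction was seen. Each of these values rests on a single late well, and an effect of oxygen on these members was not tested.

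The share of members that were detected at 1 oxygen level only was above that of the whole card and nearer that of assays at a like Ct. Of the 12 members detected in the exosome fraction, 7 (58.3%) were detected in 1 sample only, against 34 of 237 assays (14.3%). Among assays whose lower Ct was at least 31, the share was 7 of 11 members (63.6%) and 29 of all 59 assays (49.2%). From Ct 32 it was 6 of 10 members (60.0%) and 24 of all 42 assays (57.1%). The members' share was read against these late assays, since 11 of the 12 members had no exosome value under Ct 31. The exception was miR-323-3p in hypoxia, at Ct 30.92.

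**Figure D4:**
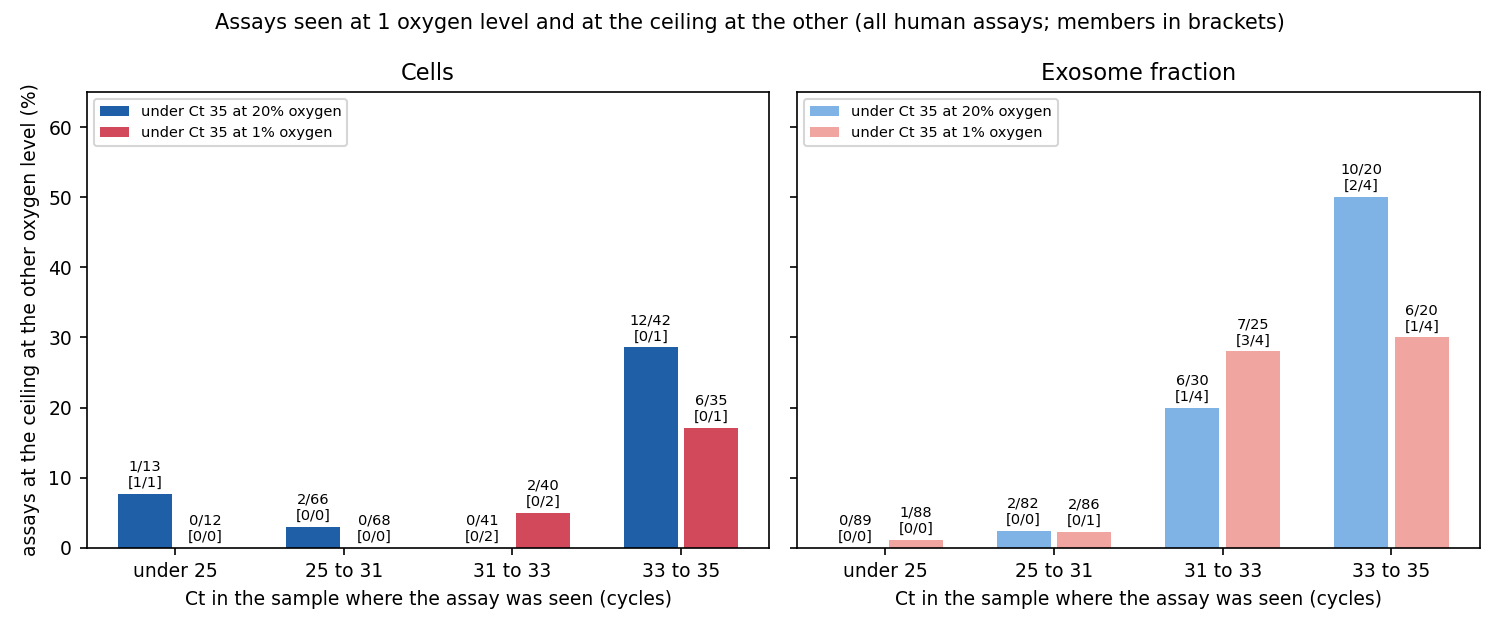
Percent of assays detected at 1 oxygen level that were at the ceiling at the other, by their Ct where detected, for cells and the exosome fraction, over all human miRNA assays, with counts above the bars and members in brackets. For normoxic exosomes the share was 20.0% of 30 assays from Ct 31 to 33 and 50.0% of 20 from Ct 33 to 35. Under Ct 25 it was 0 of 89 assays for normoxic exosomes and 1 of 88, miR-520e, for hypoxic exosomes. In cells 1 of 13 assays under Ct 25 in normoxia, miR-493, was at the ceiling in hypoxia.

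Cells and exosome fraction were set side by side only after each sample was centred on its median Ct over the 138 assays detected in all 4 samples, because only exosome products were amplified beforehand. These medians were 30.91 and 30.97 in normoxic and hypoxic cells and 23.96 and 23.99 in the normoxic and hypoxic exosome fraction. The ceiling thus lay 4.09 and 4.03 cycles above the median in cells, and 11.04 and 11.01 cycles above it in the exosome fraction, so that relatively rarer miRNAs were detectable in the latter. On this scale every member detected in cells was relatively lower in the exosome fraction. Centring takes out only a shift common to all assays. How well each single assay came through the added amplification was not tested, so the folds below describe signal after that step.

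miR-323-3p, the only member detected in all 4 samples, was 27.0-fold lower in the exosome fraction in normoxia and 7.54-fold lower in hypoxia. Among the 138 assays detected in all 4 samples it is the only member, and it was 4-fold lower at both oxygen levels, where 16.7% of these assays were lower and 2.9% higher, 19.6% in all. With the samples centred on the mean Ct, or on the median over assays under Ct 32, its hypoxic difference was -1.98 or -1.92 on the log2 scale in place of -2.91, and it no longer counted as 4-fold lower at both levels. miR-494 and miR-487a, which were not detected in all samples and so stand outside that count, were past 4-fold lower at both levels by their values or bounds.

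miR-494 was 266-fold lower in the exosome fraction in normoxia, and 0 of the 148 assays measured in both normoxic samples had a lower value. In hypoxia, where it was at the ceiling in the exosome fraction, it was at least 2024-fold lower. miR-487a, at the ceiling in both exosome samples, was at least 977-fold lower in normoxia and at least 1125-fold lower in hypoxia. It belonged to the 7 of 147 assays (4.76%) detected in both cell samples and in no exosome sample. The others were let-7a, let-7f, miR-103, miR-200c, miR-23b and miR-98. Of these, let-7a had a Ct of 30.76 in normoxic and 30.97 in hypoxic cells. Its relative let-7b was detected in the exosome fraction, at Ct 21.65 in normoxia and 21.99 in hypoxia. Whether single assays failed in the exosome samples was not tested. miR-493 was at least 2118560-fold lower in the normoxic exosome fraction, a bound that rests on the same well of normoxic cells as above.

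The reverse case, detection in the exosome fraction alone, was met in 10 of the 35 members at the ceiling in both cell samples (28.6%), against 81 of 207 assays (39.1%). At a given oxygen level it held for 6 members in normoxia and 8 in hypoxia. None of these 14 values was above the detection limit of the matching cell sample after centring: they lay 4.94 to 5.91 cycles under it in normoxia and 3.60 to 5.96 cycles under it in hypoxia. Over all assays detected in the exosome fraction alone, 69 of 73 in normoxia (94.5%) and 66 of 73 in hypoxia (90.4%) were under that limit. For these members the data therefore give no fold between the exosome fraction and cells, and their detection in the exosome fraction does not show a higher relative level there.

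**Figure D5:**
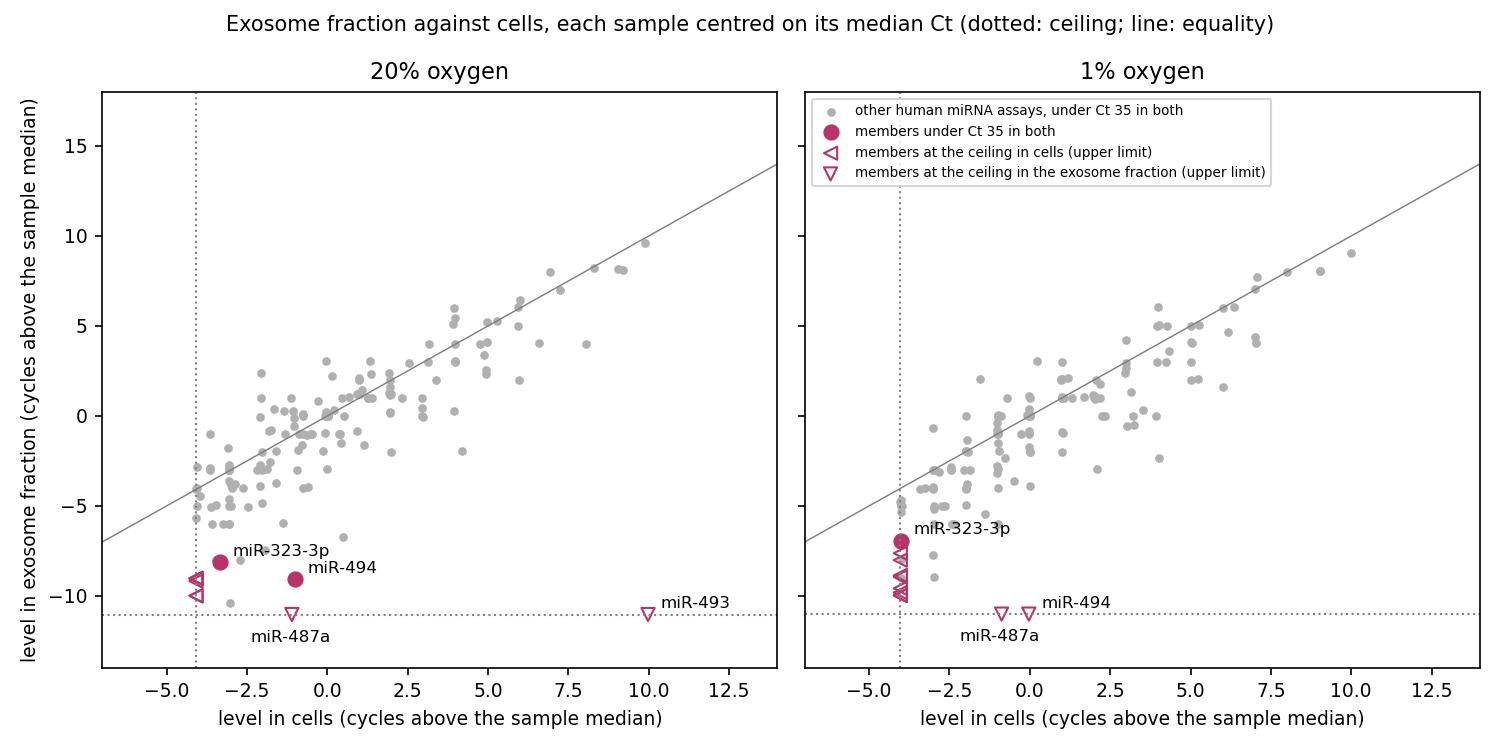
Level in the exosome fraction against level in cells, in cycles relative to each sample's median over 138 assays (higher is more), in normoxia (left) and hypoxia (right), with members in colour and the diagonal of equal level. Dotted lines are the ceilings, and open triangles are members at the ceiling in 1 compartment. Members detected in both lie under the diagonal, and those at the ceiling in cells are drawn at the cells' limit, 4.09 and 4.03 cycles under the median.

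The change with oxygen had a value in both compartments for miR-323-3p alone, while for miR-494 the exosome side is a bound. For miR-323-3p, each change kept its own normalizer: -0.73 for cells against 1.20 for the exosome fraction on the log2 scale, which differ by 1.93 or 3.81-fold. Of the 138 assays detected in all 4 samples, 0 had a larger difference in that direction, 5.8% were past 2-fold in that direction and 10.1% in the opposite one. Opposite signs in the compartments were found for 52.2% of the 138 assays, so the sign alone does not set miR-323-3p apart. Both of its cell values were within 1 cycle of the ceiling. Changes in cells varied most among late assays, with an SD of 0.85 over the 50 assays with a mean Ct from 32 to 35. The 138 assays were not matched for Ct, so the rank of miR-323-3p among them does not set it apart from late assays. miR-494 was 1.88-fold higher in hypoxic cells and at least 3.79-fold lower in the hypoxic exosome fraction.

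Along the chromosome, detection in any sample was counted by stretch, beside 251 of 377 assays (66.6%) over the whole card. In the upstream group near MEG3 and RTL1, 2 of 8 assays were detected: miR-493, in cells, and miR-127-3p, in the exosome fraction. miR-127-3p was the only detected assay of 5 that lie within RTL1 (miR-431, miR-433, miR-127-3p, miR-127-5p and miR-136). In the downstream group, 12 of 31 assays were detected, 11 of them in the exosome fraction.

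Stretches within the downstream group were chosen after the values were seen and are described only. From miR-379 to miR-329, 2 of 8 assays were detected, miR-411 and miR-323-3p. From miR-494 to miR-655, 9 of 12 assays were detected, all 9 in the exosome fraction, a share near that of the whole card. This stretch holds the miR-376 genes and the host transcript MIR381HG, within which 4 of 5 assays (miR-381, miR-539, miR-889 and miR-655) were detected and miR-487b was not. miR-487a, the next gene with a detected assay, was seen in cells only, and from miR-382 to miR-410 none of the 10 assays was detected.

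Of the 5 hairpins with both arms assayed, miR-127 and miR-654 were detected as the 3p arm only, and miR-299, miR-369 and miR-485 as neither arm. Hairpin sequences were matched for 34 of the 36 genes, all but MIR370 and MIR381. The hairpins of detected members had a median GC content of 38.0% over 14 hairpins (range 28.8% to 53.9%). It was 42.1% over the 20 hairpins whose assays were all at the ceiling (range 35% to 60.3%). Over all 1562 hairpins of the RefSeq table it was 52.1%. The ranges of detected and undetected members overlap widely, and both gene copies of miR-376a and of miR-329 were counted. The exosome-detected members had a median of 36.6% over 12 hairpins.

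Ct values of the members clustered near whole cycles. Of their 24 detected values, 17 (70.8%) lay within 0.1 cycle of a whole number, as did 480 of 757 values over all assays (63.4%). Among values from Ct 31 on, it was 15 of 22 for members (68.2%) and 160 of 253 for all assays (63.2%). Both values of miR-494 in cells (31.918 and 31.001) and both of miR-323-3p in the exosome fraction (32.07 and 30.92) were of this kind, about 1 cycle apart. The sources used here do not state how these values arose.

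The authors' deposited table lists a hypoxia over normoxia ratio for every member, also for those at the ceiling. It gives 0.9965 for all 35 members at the ceiling in both cell samples and 1.0376 for all 27 at the ceiling in both exosome samples, as if the ceiling had been a measured Ct. For miR-493 in cells the authors' deposited table gives 0.0001. None of these ratios was used as a measurement here.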

How the data were processed

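RNA of 2 cell samples and 2 exosome fractions of RPMI8226 was measured on TaqMan array cards, 1 sample per group and 1 well per human miRNA. The first deposited table holds the authors' threshold cycle of each well, not normalized. The authors' second deposited table holds a ratio of hypoxia over normoxia, made with Data Assist 3.1, per the submitters' series text. Recomputed ratios were compared with it over the 147 assays measured in both cell samples and the 203 measured in both exosome samples. For these assays the 2 differed by at most 0.000356 on the log2 scale.

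A log2 change is the Ct difference, sign turned, after subtracting the mean of the 4 U6 wells (cells) or the spike-in ath-miR159 (exosome fraction), over assays under Ct 35 in both samples. Changes were counted past 2-fold, and exosome over cells past 4-fold at both oxygen levels. An assay at the ceiling in 1 sample has a bound against Ct 35. Members detected in any sample were named with all values. Members, marker lists and alternatives (other normalizers, Ct limits, folds and centring) were chosen with earlier results of these data known. No test was possible with 1 sample a group. Wells have no depth, so precision is limited by 1 well and 1 sample. Scripts (Python 3.11.15, pandas 2.3.3) were tested on simulated data. Gene order and sequences came from RefSeq (GRCh38.p14), in which 351 of 377 human assays were matched.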

Additional observations from a re-analysis of the deposited data

Results flagged for a closer look

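Results in which every sample of cells moved one way with hypoxia and every sample of the exosome fraction the other were listed, with 1 sample per group. For miR-323-3p the exosome fraction gave 1.20 on the log2 scale and cells gave -0.73, so the former exceeded the latter by 1.93. miR-494 had a log2 change of 0.91 in cells and of at most -1.92 in the exosome fraction, where it was at the ceiling in hypoxia, so its difference of -2.83, taken the same way, is a bound. Neither difference was tested. Opposite signs were found for 52.2% of the 138 assays detected in all 4 samples.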

How the results depend on the processing

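No paired analysis was possible because each group is 1 sample, and for the same reason no sample could be left out. With Ct under 32 as the limit of detection, normoxic cells had 2 detected members, the normoxic exosome fraction 0 and the hypoxic exosome fraction 2. Members measured in both cell samples then came to 1, with a median log2 change of 0.91, and 2 were seen in 1 cell sample only. In the exosome fraction 0 were then measured in both samples, 0 were higher and 2 were seen in 1 sample only, so there was no median. With Ct under 34 the median in cells was 0.54. At 1.5-fold, 1 member was higher and 1 lower in cells, and 2 were lower in the exosome fraction. RNU44 and RNU48 as normalizer shifted all changes in cells by -0.15 and brought the members' median to 0.0161. The median of detected miRNAs shifted changes in the exosome fraction by 0.20, with a members' median of 0.40, and gave miR-323-3p a difference in response of 2.10. Among assays detected in all 4 samples, 0 members were 4-fold lower in the exosome fraction at both oxygen levels when centred on the mean Ct, and 0 when centred on assays under Ct 32. miR-494 and miR-487a, outside that count, stayed past 4-fold lower at both levels under either centring. With either centring, 0 values seen in the exosome fraction alone rose above the cells' limit. Of 50 recomputed values of named members, 30 moved by more than the pooled SD of the U6 wells in cells (0.14) and 0 changed sign. Each normalizer or centring shifts all values of a comparison at once by the same amount, so these counts do not check single members. U6 was at the ceiling in the exosome fraction, so this SD is no measure of spread there. The difference in response with Ct under 32 in all 4 samples was not run, since no member remained. Single wells near the ceiling limit every value here but that of miR-493 in normoxic cells.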
